A study of Homo sapiens with 24 samples.

Results

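The hypoxia and glycolysis genes described here are 10 genes, CA9, VEGFA, SLC2A1, HK2, PGK1, LDHA, PDK1, BNIP3, ADM and NDRG1. They were chosen by symbol among the 28307 genes of the count table, with earlier results of these data known. RNA was sequenced from 2 established cancer cell lines, SUM159 from a breast cancer and SW620 from a colon cancer. Each line was grown adherent and treated for 30 h with nifuroxazide (NIF), a nitrofuran antibiotic, or with its vehicle DMSO, and only then sorted by the ALDEFLUOR assay into ALDHbr cells, with high aldehyde dehydrogenase activity and enriched in cancer stem cells, and ALDHneg cells, with low activity. This gave 8 groups, which were SUM159 ALDHbr under NIF, SUM159 ALDHbr under DMSO, SUM159 ALDHneg under NIF, SUM159 ALDHneg under DMSO and the same 4 combinations in SW620. Each group held 3 libraries from independent experiments, 24 libraries in all. The final NIF concentration is not given in the labels. The sort took place after treatment, so a group holds the cells that fell in that gate at the end, and in such bulk samples fewer cells of a type and less RNA per cell cannot be told apart. The labels name no low-oxygen sample.

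Cells sense oxygen through prolyl hydroxylases (EGLN1 to EGLN3), which mark the alpha subunits of hypoxia-inducible factor (HIF) for VHL-dependent degradation. When oxygen is low, HIF alpha (HIF1A or EPAS1) persists, pairs with ARNT and binds a short core motif near its target genes. The targets move glucose use toward lactate (SLC2A1, HK2, PGK1, LDHA, PDK1), control pH (CA9), remove mitochondria (BNIP3), and signal to vessels (VEGFA, ADM). Many of these genes also answer to other regulators, among them MYC and the stress factor ATF4, so a change in their RNA does not name the factor behind it.

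The promoter windows of CA9, PGK1, LDHA and BNIP3 are shown first, to show where the HIF core motif lies in them. CA9 and BNIP3 differed most between the lines, and CA9, PGK1 and LDHA fell together under NIF in SW620. SLC2A1 and ADM, which rose there, also had windows, and these are not printed. The printed windows include those with the most matches. The windows run from 250 bases before to 50 after the gene start and come from the RefSeq table on GRCh38.p14, which held 8 of the 10 members, all but VEGFA and NDRG1. Capitals mark ACGTG or GCGTG on either strand, so that the reverse complements CACGT and CACGC are also in capitals. A CACGTG is counted on both strands.
CA9, chr9:35673678-35673977, plus strand: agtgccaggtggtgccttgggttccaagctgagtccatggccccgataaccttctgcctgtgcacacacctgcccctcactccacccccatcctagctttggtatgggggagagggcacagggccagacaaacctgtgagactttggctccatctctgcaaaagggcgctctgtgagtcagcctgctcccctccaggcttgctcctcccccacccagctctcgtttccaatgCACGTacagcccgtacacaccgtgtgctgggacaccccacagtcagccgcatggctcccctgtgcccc
PGK1, chrX:78103998-78104297, plus strand: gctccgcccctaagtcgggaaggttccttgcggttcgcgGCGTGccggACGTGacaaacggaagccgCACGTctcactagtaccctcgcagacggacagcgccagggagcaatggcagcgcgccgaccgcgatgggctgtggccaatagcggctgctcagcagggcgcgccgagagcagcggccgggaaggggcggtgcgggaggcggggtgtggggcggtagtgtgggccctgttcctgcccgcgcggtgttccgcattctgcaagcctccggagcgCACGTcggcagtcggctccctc
LDHA, chr11:18394313-18394612, plus strand: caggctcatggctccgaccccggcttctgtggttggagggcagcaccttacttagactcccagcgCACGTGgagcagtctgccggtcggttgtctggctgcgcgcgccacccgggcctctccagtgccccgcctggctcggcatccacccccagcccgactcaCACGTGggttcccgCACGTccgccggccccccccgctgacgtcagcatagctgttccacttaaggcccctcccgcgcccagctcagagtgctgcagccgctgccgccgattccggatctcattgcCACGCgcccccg
BNIP3, chr10:131981874-131982173, minus strand: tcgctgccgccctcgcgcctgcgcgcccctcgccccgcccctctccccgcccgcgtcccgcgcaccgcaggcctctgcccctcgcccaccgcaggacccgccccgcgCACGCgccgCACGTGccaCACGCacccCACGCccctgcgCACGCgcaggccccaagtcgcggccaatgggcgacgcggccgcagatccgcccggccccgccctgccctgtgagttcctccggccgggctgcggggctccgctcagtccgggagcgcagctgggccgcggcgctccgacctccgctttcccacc
CA9 had 1 match, at position -18, counted from the gene start. PGK1 had 4 matches, LDHA had 6 and BNIP3 had 6, of which 5 lay on the strand opposite to the gene. HK2 had 3 matches, SLC2A1 and ADM 1 each, and PDK1 had 0. At least 1 match was present in 7 of the 8 members (87.5%), beside 53.8% of the 18417 genes of the count table that had a window and 48.4% of all 35116 windows. A match is a string of letters and does not show that a factor binds there.

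Library totals ran from 30253187 to 43127948 counts. Levels are given as CPM, read counts scaled to a common library size over all 24 libraries, and changes as log2 fold changes from edgeR with Benjamini-Hochberg adjusted p-values, where a gene is called when the adjusted p is under 0.05. The line labels were checked with 10 mesenchymal markers, whose summed level was 6829 to 8478 CPM in SUM159 and 456.4 to 889.2 CPM in SW620, and with 10 colon epithelial markers, at 214.6 to 375.2 CPM in SUM159 and 9285 to 11580 CPM in SW620. The sort marker ALDH1A1 stood at 127 ± 25.9 CPM in SUM159 ALDHbr and 0.45 ± 0.0554 CPM in SUM159 ALDHneg cells under DMSO (SD, n = 3). In SW620 it reached 1397 ± 50.3 CPM in the ALDHbr and 956.3 ± 18.3 CPM in the ALDHneg group under DMSO, so that the SW620 ALDHneg cells were not low in this RNA. The SW620 mesenchymal sum moved with treatment, from 456.4 to 574 CPM over the 6 DMSO libraries to 748.3 to 889.2 CPM over the 6 NIF libraries. It was almost all MSN, which encodes the membrane linker moesin. Each of the other 9 markers stayed at or under 2.18 CPM in every SW620 library, VIM among them at or under 0.376 CPM, and TWIST1 and COL1A2 were at 0.

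The first question was where the members stood before NIF. In this and every comparison between the lines, line and anything else that differed between their experiments cannot be told apart. Under DMSO, SW620 ALDHbr cells had higher levels than SUM159 ALDHbr cells of CA9, SLC2A1, PGK1, PDK1 and NDRG1, and almost no BNIP3. Thus 5 of the 10 members were called higher and 1 lower in SW620, against a background of 81.3% of all 16271 tested genes called in either direction, so the share of members called was below that of all genes. The order of levels also differed between lines. Per kilobase of canonical exon, LDHA was the highest member in both, at 959.8 CPM per kb in SUM159 and 962.5 CPM per kb in SW620. The lowest in SUM159 ALDHbr cells under DMSO was CA9, at 0.433 CPM per kb, whereas in SW620 CA9 reached 136.7 CPM per kb and the lowest was BNIP3, at 0.

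CA9 encodes a carbonic anhydrase on the outer cell surface that helps cells export acid. It lies on chromosome 9 at 35673928 to 35681159 (GRCh38.p14, RefSeq). In ALDHbr cells under DMSO, the SUM159 libraries had 29, 16 and 26 counts of CA9, or 0.839, 0.512 and 0.657 CPM. The SW620 libraries had 8104, 5792 and 8470 counts, or 207, 181.9 and 245 CPM. No library of either line came near the other line, and the log2 difference was 8.29 (SE 0.19, adjusted p = 6.46e-22), which is 312.2-fold.

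BNIP3 encodes a mitochondrial outer membrane protein that recruits the autophagy machinery, and lies on chromosome 10 at 131967684 to 131981923. In SUM159 it was found in every library, at 56.1, 57.8 and 61.0 CPM in ALDHbr cells under DMSO. In SW620 it had 2 counts in all over 12 libraries, and 10 of the 12 were at 0. With 3 counts over a group taken as the limit of a count of 0, BNIP3 was at least 2050-fold higher in SUM159 than in SW620 ALDHbr cells under DMSO and at least 2320-fold higher under NIF. In ALDHneg cells it was at least 3900-fold higher under NIF. Under DMSO, where the SW620 ALDHneg group had the 2 counts, the ratio was 3990 with a 95% exact Poisson interval of 1110 to 33000. The limits and the interval cover counting error only. Its close relative BNIP3L was present in both lines, at 23.9 ± 3.27 CPM in SUM159 and 35.6 ± 3.39 CPM in SW620 ALDHbr cells under DMSO, so the near absence in SW620 was not shared by this paralog.

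The other baseline differences were smaller. SLC2A1, the main glucose carrier of proliferating cells (chromosome 1, 42925353 to 42958868), stood at 161, 170 and 153.9 CPM in SUM159 and at 806.3, 948.4 and 947.4 CPM in SW620 ALDHbr cells under DMSO, a log2 difference of 2.48 (SE 0.08, adjusted p = 5.08e-19). NDRG1, a stress-responsive gene linked to differentiation and metastasis suppression (chromosome 8, 133237175 to 133297252), was 2.00 higher on the log2 scale in SW620 (SE 0.14, adjusted p = 1.11e-12). Both were higher in every SW620 library than in any SUM159 library of this comparison. PGK1, the first enzyme of glycolysis to return ATP, was 0.99 higher (adjusted p = 8.61e-14), and PDK1, the kinase that switches off pyruvate dehydrogenase, 0.48 higher (adjusted p = 5.98e-05). HK2 (0.075, 95% interval -0.10 to 0.26), LDHA (0.0042, interval -0.12 to 0.12) and ADM (0.17, interval -0.20 to 0.53) were not called. VEGFA was 0.19 lower in SW620 (interval -0.39 to 0.0092, adjusted p = 0.0731), and passed the threshold under several settings, among them library-size scaling (-0.34, adjusted p = 0.00195), the replicate block explained with the SUM159 results (-0.18, adjusted p = 0.0327) and without SUM159 ALDHbr DMSO replicate 3 (-0.30, adjusted p = 0.00805). Here the block also covered SW620, where the replicate numbers did not pair.

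The ALDHbr and ALDHneg populations were compared next, under DMSO. These comparisons use the same DMSO libraries as the NIF comparisons that follow. In SUM159, CA9, BNIP3 and ADM were lower in ALDHbr cells, that is 3 of 10 members called, all in that direction, beside 23.0% of all tested genes called in either direction. CA9 had 0.839, 0.512 and 0.657 CPM in the ALDHbr libraries and 3.77, 3.19 and 2.16 CPM in the ALDHneg libraries. The groups did not overlap, and the log2 difference was -2.17 (SE 0.26, adjusted p = 1.79e-05), which puts ALDHbr cells at 22.3% of the ALDHneg level.

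ADM, the gene of the vasodilator peptide adrenomedullin (chromosome 11, 10305073 to 10307397), had 13.9, 13.8 and 8.67 CPM in SUM159 ALDHbr and 22.4, 18.0 and 17.9 CPM in ALDHneg cells, a log2 difference of -0.69 (SE 0.21, adjusted p = 0.0272). BNIP3 was lower by -0.35 (SE 0.10, adjusted p = 0.0172). Neither group pair overlapped, nor did those of PGK1, LDHA and PDK1, which were not called. The ADM and BNIP3 calls were both lost when some single libraries were left out. The ADM call was lost without ALDHbr DMSO replicate 3 (-0.49, adjusted p = 0.118) and without ALDHneg DMSO replicate 1 (-0.57, adjusted p = 0.109). The BNIP3 call was lost without ALDHbr DMSO replicate 1 (adjusted p = 0.0655), ALDHbr DMSO replicate 2 (adjusted p = 0.0503) or ALDHneg DMSO replicate 3 (adjusted p = 0.067). Without ALDHneg DMSO replicate 2, 6 members were called, PGK1 (0.18, adjusted p = 0.0488), LDHA (0.18, adjusted p = 0.0452) and PDK1 (-0.30, adjusted p = 0.0416) being added. Over the fits with a library left out, 2543 to 3136 of all tested genes were called. NDRG1 (-0.28, adjusted p = 0.093) passed without ALDHbr DMSO replicate 2 (-0.41, adjusted p = 0.0169) or ALDHneg DMSO replicate 3 (-0.36, adjusted p = 0.0408).

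In SUM159, libraries with the same replicate number deviated together, so the number was also entered as a block, which compares libraries of the same number. The labels do not say that a number stands for a shared experiment. With this block 8 members were called between the SUM159 populations, beside 36.0% of all tested genes. PGK1 (0.15) and LDHA (0.14) were higher in ALDHbr cells, and CA9 (-2.15), ADM (-0.71), BNIP3 (-0.35), NDRG1 (-0.28), PDK1 (-0.25) and SLC2A1 (-0.14) lower, all on the log2 scale. VEGFA and HK2 were not called. The glycolytic enzymes PGK1 and LDHA thus had the opposite sign to CA9, ADM, BNIP3 and NDRG1 in the blocked comparison.

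In SW620, 2 of the 9 tested members were called between populations, beside 11.3% of all tested genes. ADM was higher in ALDHbr cells, at 12.7, 12.7 and 15.2 CPM against 8.65, 8.48 and 10.4 CPM in ALDHneg cells (log2 difference 0.56, SE 0.09, adjusted p = 0.00146). SLC2A1 was lower, at 806.3, 948.4 and 947.4 CPM against 1140, 1151 and 1255 CPM (-0.39, SE 0.06, adjusted p = 0.00113). Neither pair of groups overlapped, nor did that of VEGFA, which was not called. The ADM difference had the opposite sign to that in SUM159, a contrast that was not itself tested. Fitting all 24 libraries together left 1 call, since ADM fell to an adjusted p of 0.0521. Without ALDHbr DMSO replicate 2, 5487 genes in place of 1577 and 6 members were called, with CA9 (0.35, adjusted p = 0.00375), VEGFA (-0.18, adjusted p = 0.0229), HK2 (-0.29, adjusted p = 0.00524) and NDRG1 (-0.38, adjusted p = 0.034) added, and without ALDHbr DMSO replicate 3 NDRG1 was called (-0.49, adjusted p = 0.0438).

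In SUM159, CA9 was 3.51-fold higher under NIF in ALDHbr and 3.01-fold higher in ALDHneg cells, and several other members were higher by a smaller factor in ALDHneg cells. In ALDHbr cells CA9 was the only member called, 1 of 10, beside 3.16% of all tested genes. In ALDHneg cells 5 of 10 members were called, all higher, beside 3.30% of all tested genes, namely CA9, HK2, PDK1, BNIP3 and NDRG1. The median log2 fold change of the 10 members was 0.14 in ALDHbr and 0.34 in ALDHneg cells, beside -0.003 and 0.003 over all tested genes. Because the members were chosen with earlier results of these data known, such shares and medians describe them and are not an independent test.

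In ALDHbr cells, CA9 rose from 0.839, 0.512 and 0.657 CPM under DMSO to 2.22, 1.95 and 2.94 CPM under NIF. The log2 fold change was 1.81 (SE 0.26, 95% interval 1.26 to 2.37, adjusted p = 0.00118). In ALDHneg cells CA9 rose from 3.77, 3.19 and 2.16 CPM to 8.88, 10.5 and 8.06 CPM, a log2 fold change of 1.59 (SE 0.21, interval 1.15 to 2.03, adjusted p = 0.000642). The NIF libraries were above the DMSO libraries of the same replicate number in all 6 pairs, 3 in each population. The ratios were 2.64 to 4.47 in ALDHbr and 2.35 to 3.73 in ALDHneg cells. The range of NIF-treated ALDHbr cells overlapped that of ALDHneg cells under DMSO.

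BNIP3 rose in SUM159 ALDHneg cells from 68.5, 74.3 and 79.2 CPM to 103.5, 127.6 and 91.7 CPM (log2 fold change 0.54, SE 0.10, adjusted p = 0.00667). NDRG1 rose from 57.4, 67.4 and 51.4 CPM to 85.4, 95.8 and 77.3 CPM (0.55, SE 0.11, adjusted p = 0.0145). In both, every NIF library was above every DMSO library. HK2, which traps glucose in the cell by phosphorylation (chromosome 2, 74834127 to 74893359), rose from 92.7, 102.4 and 105.9 CPM to 112.7, 140.1 and 120.2 CPM (0.31, SE 0.08, adjusted p = 0.0489). PDK1 rose from 32.4, 27.4 and 29.2 CPM to 34.7, 43.3 and 37.1 CPM (0.37, SE 0.09, adjusted p = 0.0421). These groups did not overlap either, yet the HK2 and PDK1 calls sat close to the threshold. Lack of overlap was not particular to called members. In ALDHbr cells the groups of PGK1, LDHA, PDK1, BNIP3 and NDRG1 did not overlap, and these were not called. The share of all tested genes without overlap was not worked out.

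Of these calls, HK2, PDK1 and NDRG1 were lost when some single libraries were left out. HK2 and PDK1 were both lost without ALDHneg NIF replicate 2 (0.22, adjusted p = 0.14, and 0.28, adjusted p = 0.138), ALDHneg NIF replicate 3 (adjusted p = 0.104 and 0.0982), ALDHneg DMSO replicate 1 (adjusted p = 0.188 and 0.0506), ALDHneg DMSO replicate 2 (adjusted p = 0.0642 and 0.103) or ALDHneg DMSO replicate 3 (adjusted p = 0.0575 and 0.115). NDRG1 was lost without ALDHneg NIF replicate 1 (adjusted p = 0.0533), ALDHneg NIF replicate 2 (0.0546), ALDHneg DMSO replicate 1 (0.0633) or ALDHneg DMSO replicate 3 (0.0578). The number of members called then ran from 2 to 4, beside 192 to 584 of all tested genes. In ALDHbr cells NDRG1 was called without ALDHbr DMSO replicate 2 (0.52, adjusted p = 0.0234), which made 2 members. With a library left out, 222 to 322 of all tested genes were called in ALDHbr cells.

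With the replicate block, 4 members were called in SUM159 ALDHbr cells, beside 13.3% of all tested genes. To CA9 it added BNIP3 (0.36, adjusted p = 0.00345, against 0.058 without the block), ADM (0.48, adjusted p = 0.0047, against 0.248) and NDRG1 (0.40, adjusted p = 3.14e-05, against 0.0824). In ALDHneg cells 9 members were called, beside 13.2% of all tested genes, and all were higher under NIF. The added ones were SLC2A1 (0.14, adjusted p = 0.0382), PGK1 (0.19, adjusted p = 0.00532), LDHA (0.14, adjusted p = 0.0347) and ADM (0.39, adjusted p = 0.0117). VEGFA was the one member called in neither population with the block, at -0.20 (adjusted p = 0.0653) and -0.08 (adjusted p = 0.487).

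ADM shows what the block does. In SUM159 ALDHbr cells it had 13.9, 13.8 and 8.67 CPM under DMSO and 20.3, 19.0 and 11.8 CPM under NIF, so the groups overlapped. Within each replicate number the NIF library was 1.36 to 1.46 times the DMSO library.

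In SW620, members moved in both directions under NIF, with CA9, PGK1 and LDHA lower and VEGFA, SLC2A1 and ADM higher. These 6 of the 9 tested members were called in ALDHbr cells and the same 6 in ALDHneg cells. The backgrounds were 43.3% of all tested genes in ALDHbr and 45.1% in ALDHneg cells, so being called was common among all genes of this line. Of the ALDHneg calls 49.5% were higher under NIF, or 39.4% with library-size scaling. The median log2 fold change of the 9 members was -0.093 in ALDHbr and -0.15 in ALDHneg cells, beside -0.007 and -0.008 over all tested genes. All 12 calls were kept under every alternative setting and without any single library.

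CA9 fell in SW620 ALDHbr cells from 207, 181.9 and 245 CPM to 86.2, 92.6 and 104.4 CPM, to 44.6% of its DMSO level (log2 fold change -1.17, SE 0.10, adjusted p = 5.19e-07). In ALDHneg cells it fell from 166.2, 171.5 and 190.4 CPM to 78.1, 83.4 and 76.8 CPM, to 44.9% (-1.16, SE 0.10, adjusted p = 4.64e-07). Every NIF library was below every DMSO library, and even the lowest of them was above every SUM159 library.

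VEGFA, the main growth factor for blood vessels (chromosome 6, 43770211 to 43786487), rose in SW620 ALDHbr cells from 93.0, 99.2 and 99.0 CPM to 240.4, 223.2 and 225.6 CPM (log2 fold change 1.24, SE 0.05, adjusted p = 6.92e-10). In ALDHneg cells it rose from 101.6, 107.7 and 114.6 CPM to 304.2, 301.4 and 304.6 CPM (1.48, SE 0.05, adjusted p = 9.77e-11). The groups were far apart relative to their spread. In SUM159 the VEGFA libraries overlapped between treatments, with fold changes of -0.21 (interval -0.45 to 0.027) in ALDHbr and -0.090 (interval -0.33 to 0.15) in ALDHneg cells.

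ADM, the other secreted vascular factor, rose from 12.7, 12.7 and 15.2 CPM to 19.6, 19.9 and 20.8 CPM in SW620 ALDHbr cells (0.57, SE 0.09, adjusted p = 0.00014). In ALDHneg cells it rose from 8.65, 8.48 and 10.4 CPM to 16.0, 16.6 and 16.6 CPM (0.83, SE 0.09, adjusted p = 4.59e-06). No DMSO library reached any NIF library in either population.

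Among the glycolytic members of SW620, the carrier went one way and the later enzymes the other. SLC2A1 rose in ALDHbr cells from 806.3, 948.4 and 947.4 CPM to 1771, 1724 and 1718 CPM (0.95, SE 0.06, adjusted p = 3.84e-08) and in ALDHneg cells from 1140, 1151 and 1255 CPM to 2024, 2032 and 1996 CPM (0.76, SE 0.06, adjusted p = 2.53e-07). PGK1 (chromosome X, 78104248 to 78129295) fell in ALDHbr cells from 1075, 1096 and 1163 CPM to 799, 806.4 and 847.2 CPM (-0.45, SE 0.05, adjusted p = 7.73e-06) and in ALDHneg cells by 0.52 on the log2 scale (SE 0.05, adjusted p = 1.54e-06). LDHA, which turns pyruvate into lactate (chromosome 11, 18394563 to 18408425), fell in ALDHbr cells from 2079, 2072 and 2319 CPM to 1570, 1641 and 1675 CPM (-0.41, SE 0.05, adjusted p = 2.67e-05) and in ALDHneg cells by 0.47 (SE 0.05, adjusted p = 5.7e-06). None of these groups overlapped.

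HK2, PDK1 and NDRG1 were not called in SW620, though in ALDHneg cells the HK2 and PDK1 groups did not overlap, with NIF lower. HK2 had -0.093 (interval -0.28 to 0.090) in ALDHbr and -0.15 (interval -0.33 to 0.036) in ALDHneg cells. NDRG1 had -0.023 (interval -0.30 to 0.25) and -0.041 (interval -0.31 to 0.23), with DMSO libraries that spread from 154.3 to 228.8 CPM in ALDHbr cells. PDK1 (chromosome 2, 172555373 to 172724312) had -0.099 (interval -0.28 to 0.085) in ALDHbr and -0.21 (interval -0.39 to -0.024, adjusted p = 0.062) in ALDHneg cells, and the ALDHneg value was called under library-size scaling (adjusted p = 0.0302), with the 6 compared libraries alone (adjusted p = 0.00408, where HK2 was called too, adjusted p = 0.00625) and without ALDHneg DMSO replicate 1 (adjusted p = 0.0287).

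**Figure D1:**
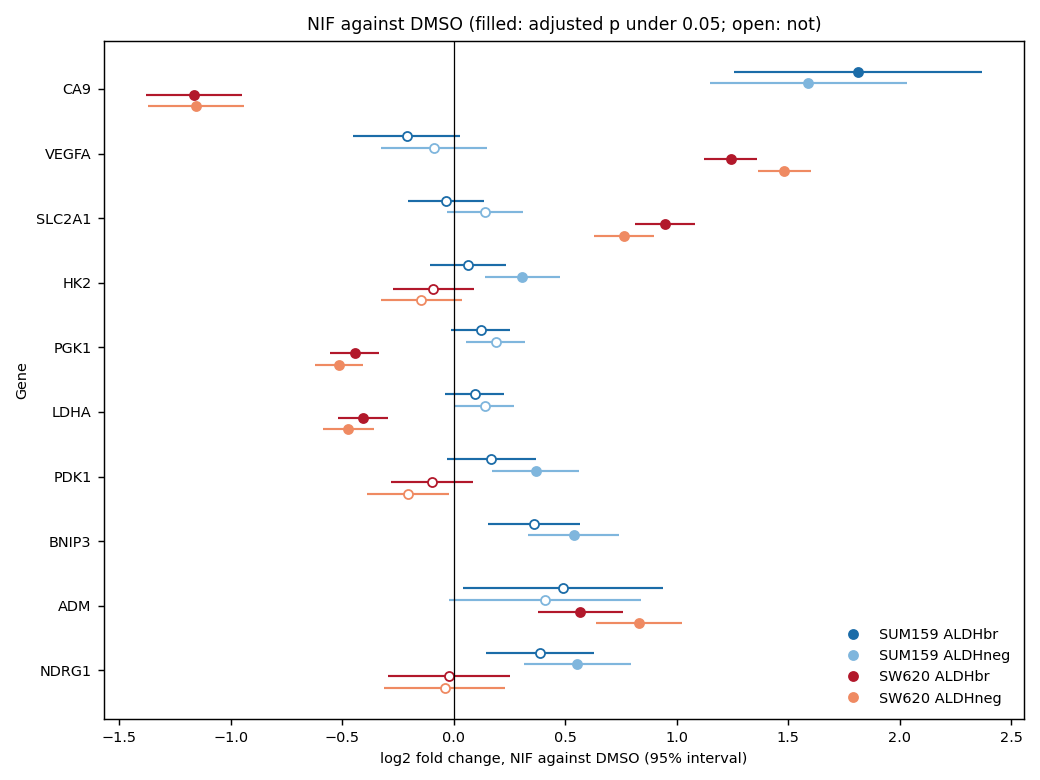
Log2 fold change of NIF against DMSO (horizontal axis) for each member (vertical axis) in the 4 populations, with 95% intervals from edgeR over 3 libraries a group. Filled points are called at an adjusted p under 0.05 and open points are not. CA9 lies at 1.81 and 1.59 in SUM159 and at -1.17 and -1.16 in SW620, and VEGFA at 1.24 and 1.48 in SW620 alone lies far from 0. BNIP3 has no SW620 point because it was not tested there.

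Whether the lines answered NIF differently was tested on the difference itself, as the fold change in SW620 minus that in SUM159. Line and anything else that differed between the experiments on the lines cannot be told apart here. The study lists drug concentrations by cell line, and whether the NIF dose was the same in both is not known from the labels. BNIP3 could not be compared, since SW620 had next to no counts. In ALDHbr cells 5 of the other 9 members differed, beside 23.1% of all tested genes, and in ALDHneg cells 8 of 9, beside 22.4%. CA9 differed by -2.98 in ALDHbr (SE 0.29, adjusted p = 4.77e-08) and by -2.75 in ALDHneg cells (SE 0.20, adjusted p = 5.41e-10), with opposite signs in the lines. VEGFA differed by 1.45 (SE 0.14) and 1.58 (SE 0.14), and SLC2A1 by 0.98 (SE 0.11) and 0.63 (SE 0.11). PGK1 differed by -0.57 and -0.70 and LDHA by -0.50 and -0.60, each with an SE of 0.08. These 5 members differed in both populations.

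HK2 (-0.45, adjusted p = 0.00976), PDK1 (-0.57, adjusted p = 0.00224) and NDRG1 (-0.59, adjusted p = 0.0218) differed in ALDHneg cells. The NDRG1 call there was lost without SUM159 ALDHneg NIF replicate 2 (-0.50, adjusted p = 0.0717), SUM159 ALDHneg DMSO replicate 3 (-0.50, adjusted p = 0.063) or SW620 ALDHneg DMSO replicate 3 (-0.43, adjusted p = 0.0953). In ALDHbr cells NDRG1 was not called (-0.41, interval -0.79 to -0.030, adjusted p = 0.116), but was with the replicate block (adjusted p = 0.0146) and without SUM159 ALDHbr DMSO replicate 2 (-0.55, adjusted p = 0.0393) or SW620 ALDHbr DMSO replicate 1 (-0.55, adjusted p = 0.0257). ADM had positive fold changes under NIF in both lines, though in SUM159 it was called only with the replicate block. Its difference between the lines was 0.075 (interval -0.43 to 0.58) in ALDHbr and 0.43 (interval -0.074 to 0.93) in ALDHneg cells, the latter called with the block (0.45, adjusted p = 0.0275). In comparisons between the lines the block also covered SW620, where the replicate numbers did not pair. The lines also differ in how many genes moved at all, and the reason was not tested.

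The study asks about a compound that acts on ALDHbr cells, so the NIF effect in ALDHbr was set against that in ALDHneg cells within each line. In SUM159 0 of 10 members differed, beside 0% of all 14953 tested genes by edgeR, with 1 member and 238 genes at an unadjusted p under 0.05 and 2 genes but 0 members by DESeq2. In SW620 0 of 9 members differed, beside 0.00717% of all tested genes, with 1 member and 771 genes at an unadjusted p under 0.05, and DESeq2 called 29 genes and 0 members. The members at an unadjusted p under 0.05 were HK2 in SUM159, at -0.25 (interval -0.49 to -0.0049), and VEGFA in SW620, at -0.24 (interval -0.41 to -0.077, adjusted p = 0.673). These tests did not pair libraries of the same replicate number. With the replicate block, HK2 in SUM159 had -0.24 (edgeR adjusted p = 0.988). For CA9 the difference was 0.22 (interval -0.49 to 0.93) in SUM159 and -0.0098 (interval -0.31 to 0.29) in SW620. A call in one population and not in the other, as for HK2, PDK1, BNIP3 and NDRG1 in SUM159, is therefore not shown to be a difference between populations.

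The genes that surround the members in the pathway were taken as lists, read by counts beside the share of all tested genes called. In SUM159 that share was 3.16% in ALDHbr and 3.30% in ALDHneg cells, or 13.3% and 13.2% with the replicate block. In SW620 it was 43.3% and 45.1%. For SUM159 each count is given first without and then with the replicate block. In SUM159, of the 24 tested glycolysis enzymes and carriers outside the members, 2 were called higher in ALDHbr cells, the aldolase ALDOC (0.56, adjusted p = 0.0423) and PFKFB3 (0.29, adjusted p = 0.0413), which makes the activator of phosphofructokinase. In ALDHneg cells 1 was higher, the glucose carrier SLC2A3 (0.32, adjusted p = 0.0399). No gene of this list was called lower in SUM159 in either population. With the block 6 were higher in ALDHbr and 10 in ALDHneg cells, and again 0 lower.

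In SW620, 7 of 23 tested genes of the glycolysis list were higher and 11 lower in ALDHbr cells, and 7 were higher and 7 lower in ALDHneg cells. These calls made 78.3% of the list in ALDHbr and 60.9% in ALDHneg cells, beside 43.3% and 45.1% of all tested genes. The 2 highest and 2 lowest called values were those of HKDC1, a hexokinase paralog of HK2 (2.00 and 2.13), ENO2 (0.78 and 0.79), LDHB, the partner subunit of LDHA (-0.53 and -0.50), and ALDOC (-0.96 and -0.89), in ALDHbr and ALDHneg cells. Along the path, and chosen after their values were seen, HK1 (0.50 and 0.60) and PFKP (0.43 and 0.40) were higher with SLC2A1. PFKL, like PFKP a phosphofructokinase gene, was lower (-0.22 and -0.30). GPI (-0.35 and -0.34), PGAM1 (-0.34 and -0.38) and ENO1 (-0.33 and -0.24) were lower with PGK1 and LDHA. The lactate exporter SLC16A3 was higher (0.43 and 0.44). GAPDH, between ALDOC and PGK1 on the path, had 0.022 in both populations and was not called.

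Pyruvate entry into mitochondria is the step that PDK1 restrains. Of its 13 other genes, edgeR called 0 in SUM159 in either population. At an unadjusted p under 0.05 were 2 in ALDHbr and 3 in ALDHneg cells, beside 2503 and 2510 of all 14953 tested genes. DESeq2 called 0 and 1, the latter DLAT. With the block, PDHA1 was higher and PDK4 lower in ALDHbr cells, and DLAT was higher in ALDHneg cells. In SW620 1 was higher and 8 lower in each population. That made 69.2% of the list, beside 43.3% of all tested genes in ALDHbr and 45.1% in ALDHneg cells. PDP1, the phosphatase that reverses the action of the PDK kinases, was higher (0.84 and 0.71). The kinases PDK3 (-0.60 and -0.66) and PDK4 (-0.56 and -1.07) were lower, and so, chosen after their values were seen, were the pyruvate carrier subunits MPC1 (-0.50 and -0.60) and MPC2 (-0.28 and -0.38).

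**Figure D2:**
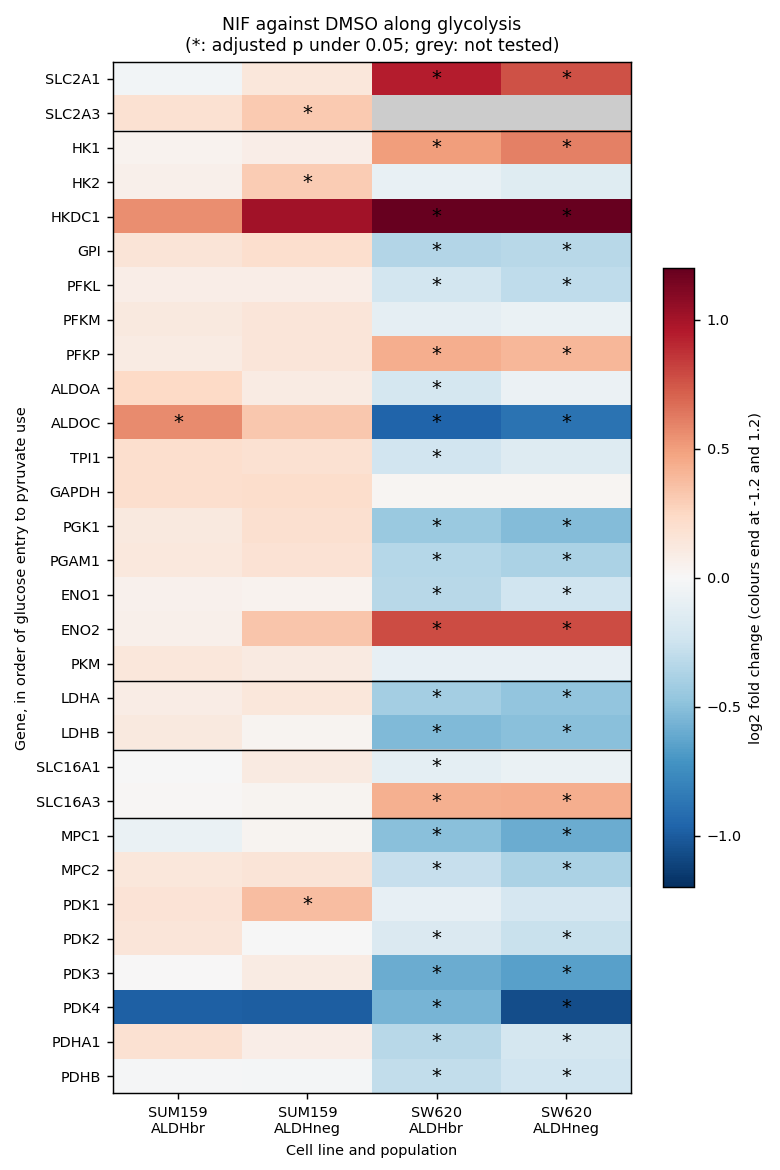
Log2 fold change of NIF against DMSO (colour) for 30 genes from glucose carriers to pyruvate use (rows, chosen with their values known) in the 4 populations (columns), with asterisks at an adjusted p under 0.05 and grey where a gene was not tested. SLC2A1, HK1, HKDC1, PFKP, ENO2 and SLC16A3 are higher and PGK1, LDHA, GPI, PFKL, PGAM1 and ENO1 lower in both SW620 populations. Few genes are marked in SUM159, where the marks are those without the replicate block.

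In SW620, the share of genes of the HIF machinery called was below that of all tested genes, a difference that was not tested. Of the 14 tested, 21.4% were called in ALDHbr and 28.6% in ALDHneg cells, beside 43.3% and 45.1% of all tested genes. In SUM159, edgeR called 0 of 15 tested genes of this list in either population, beside 3.16% and 3.30% of all tested genes. At an unadjusted p under 0.05 were 4 in ALDHbr and 5 in ALDHneg cells, beside 2503 and 2510 of all 14953 tested genes. DESeq2 called 1 in each, EGLN3 and VHL. With the block 2 of the 15 were higher and 2 lower in each population, beside 13.3% and 13.2% of all tested genes called. CITED2 and HIF1AN were higher in ALDHbr cells, EPAS1 and HIF1AN in ALDHneg cells, and EGLN3 and VHL were lower in both. In SW620, EPAS1 was higher, from 43.3, 55.3 and 44.7 CPM to 97.4, 87.0 and 78.1 CPM in ALDHbr cells (0.87, adjusted p = 4.73e-06) and by 0.84 in ALDHneg cells (adjusted p = 5.44e-06), with no overlap. The oxygen sensor EGLN1 (-0.29 and -0.38) and RBX1 of the VHL ubiquitin ligase (-0.31 and -0.29) were lower, as was CUL2 in ALDHneg cells (-0.13, adjusted p = 0.0474, named after its value was seen). HIF1A was not called in any of the 4 comparisons, at -0.0029 and 0.12 in SUM159 and 0.24 and 0.10 in SW620. HIF alpha is controlled mainly through protein stability, which these counts do not measure.

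Other HIF target genes moved in both directions. In SUM159 ALDHbr cells 3 of 39 tested genes were higher and 3 lower, with TMEM45A (0.69) and FAM162A (0.33) at the top and STC1 (-1.14) and STC2 (-0.67), which encode stanniocalcin hormones, at the bottom. In SUM159 ALDHneg cells 6 were higher, led by the adenylate kinase AK4 (0.63) and TMEM45A (0.60), and 1 lower, STC2 (-0.57). With the block 7 were higher and 7 lower in ALDHbr cells, and 10 higher and 5 lower in ALDHneg cells. In SW620 ALDHbr cells 11 of 32 were higher and 6 lower, with the lipoprotein receptor VLDLR (1.96) among the higher genes and MIR210HG (-0.71), the host of miR-210, and the collagen-modifying PLOD2 (-0.57) lowest. In SW620 ALDHneg cells 10 were higher and 11 lower, with RORA (2.10) among the higher genes and PPFIA4 (-1.01) and PLOD2 (-0.84) lowest. Each of the 4 comparisons thus held calls in both directions. Without the block, the calls in SUM159 made 15.4% of the list in ALDHbr and 17.9% in ALDHneg cells, beside 3.16% and 3.30% of all tested genes. In SW620 they made 53.1% and 65.6%, beside 43.3% and 45.1%.

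Of the other regulators of the members, the antioxidant factor NFE2L2 was the 1 of 11 tested genes called in SUM159, lower in ALDHbr (-0.44, adjusted p = 0.00282) and ALDHneg cells (-0.37, adjusted p = 0.0118). With the block 1 was higher, ATF4, and 4 lower in each population. In SW620 4 were higher and 3 lower in each population. That made 63.6% of the list, beside 43.3% of all tested genes in ALDHbr and 45.1% in ALDHneg cells. The stress factors DDIT3 (1.66 and 1.74) and ATF4 (0.74 and 0.85) were highest, and TXNIP, which limits glucose uptake (-0.34 and -0.95), was among the lower genes.

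Paralogs of the members were called in SUM159 in 1 of 22 tested genes in each population, CA2 (-0.81) in ALDHbr and SLC2A3 in ALDHneg cells. With the block 0 were higher and 3 lower in ALDHbr cells, and 2 higher and 2 lower in ALDHneg cells. In SW620 ALDHbr cells 5 of 23 were higher and 10 lower, and in ALDHneg cells 5 and 12. These calls made 65.2% and 73.9% of the list, beside 43.3% and 45.1% of all tested genes. ADM2, a paralog of ADM, was higher by 3.06 and 2.82, and HKDC1 stands above. ADM5 (-0.96 and -1.35) and NDRG2 (-1.01 and -1.10) were lower. Of the receptors for VEGF and adrenomedullin, the VEGF co-receptor NRP1 was lower in SUM159 (-0.43 and -0.38), and with the block KDR was lower too in ALDHbr cells. In SW620 only 3 of 9 passed the low-count filter, with NRP2 higher (0.57 and 0.61), RAMP1, a co-receptor subunit, lower (-0.88 and -0.66) and NRP1 higher in ALDHneg cells (0.22).

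The genes whose levels ran most like a member were found by Pearson correlation of log2 CPM over the 12 libraries of a line, which share their groups. For CA9 in SUM159 they were CHAC1 (r = 0.971), S1PR1 (r = 0.967) and PRSS23 (r = 0.953), and 66 genes had r over 0.9. For VEGFA in SW620 they were BCAR3 (r = 0.997), PVR (r = 0.996) and DUSP5 (r = 0.996), with 1336 genes over 0.9. The larger number in SW620 stands beside the larger share of genes that moved with NIF there.

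Some levels carry a limit from the annotation. RefSeq lists 46 pseudogenes named after BNIP3, 6 after LDHA, 2 each after PGK1 and PDK1 and 1 after HK2, and how reads shared with such copies were counted is not given in the sources used here. BNIP3 also overlaps PPP2R2D, SLC2A1 the pseudogene ATP6V0CP4, and PDK1 the antisense RNAs PDK1-AS1 and RAPGEF4-AS1. CA9, VEGFA, ADM and NDRG1 have neither a pseudogene so named nor an overlapping gene in that table.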

How the data were processed

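RNA from 24 libraries (8 groups of 3) was prepared with a stranded total RNA kit. The values deposited by the authors are raw counts for 28307 genes, 4579 of them at 0 throughout. The submitters' processing notes name FastQC, STAR and GRCh38 without roles; the counting tool, annotation and strand setting are not given in the sources used here. Gene positions and promoters are from RefSeq (GRCh38.p14), and exon lengths from the canonical transcripts of GENCODE.

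Testing used edgeR 4.0.16 under R 4.3.3. Each line was fitted on its 12 libraries in 4 groups, and differences between lines on all 24, after filterByExpr and TMM normalization, with the quasi-likelihood test and Benjamini-Hochberg adjusted p-values under 0.05, without a minimum fold. CPM use TMM over 24 libraries, and log2 CPM a prior count of 2. Library totals ran from 30253187 to 43127948 (median 36520935), and replicates differed by more than sampling noise (chi-square per gene 1.95 to 43.1 over 24 pairs). The study describes 3 independent experiments.

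Same-numbered SUM159 libraries deviated together from their group means (r 0.126 to 0.452, over 0.1 in 18 of 18 pairs), so the numbers were taken to pair them. In SW620 they did not. Alternatives were DESeq2 1.42.0, RLE and library-size scaling, no count filter, a replicate block, other sets of libraries in the fit and each library left out. The scripts were tested on simulated data. The members and lists were chosen with earlier results of these data known. Named were all members, genes of the HIF machinery and other regulators, called list genes with the 2 highest and 2 lowest fold changes in each NIF comparison, and the 3 genes most correlated with the most changed member in ALDHbr cells of each line. Some named list genes are not reported here.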

Additional observations from a re-analysis of the deposited data

Results flagged for a closer look

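The NIF effect differed between the lines for 5 members in ALDHbr cells and 8 in ALDHneg cells, by the edgeR test of the difference (SW620 minus SUM159, log2 scale). Line and other differences between the experiments on the lines cannot be told apart. In ALDHbr cells the differences were -2.98 for CA9, 1.45 for VEGFA, 0.98 for SLC2A1, -0.57 for PGK1 and -0.50 for LDHA. In ALDHneg cells they were -2.75 for CA9, 1.58 for VEGFA, 0.63 for SLC2A1, -0.70 for PGK1, -0.60 for LDHA, -0.57 for PDK1, -0.59 for NDRG1 and -0.45 for HK2. CA9 rose in 1 line and fell in the other, from levels under DMSO that differed 312.2-fold in ALDHbr cells. PGK1 and LDHA fell in SW620 and had positive fold changes that did not pass the test in SUM159. In SUM159 ALDHneg cells PGK1 passed with the replicate block, DESeq2 or library-size scaling, and LDHA with the block.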

How the results depend on the processing

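Over 88 results for single members and all their alternatives, 34 of 41 calls were kept in every one and 0 of 41 reversed. The number of members called in SUM159 ALDHbr cells under NIF (1) was 3 with DESeq2, 3 with no filter on low counts, 2 with all 24 libraries in the fit, 2 with the 6 compared libraries, 4 with the replicate block and 1 to 2 with a library left out. In SUM159 ALDHneg cells (5) it was 6 with DESeq2, 9 with the block, 3 with the 6 compared libraries and 2 to 4 with a library left out. Between SUM159 populations (3) it was 4 with DESeq2, 8 with the block and 2 to 6 with a library left out, and between SW620 populations (2) 3 with DESeq2, 1 with all 24 libraries and 2 to 6 with a library left out. The cause was not tested. The block, whose numbers pair the SUM159 libraries, changed calls only as given above; in SW620 the numbers did not pair (r -0.276 to 0.213), and the block added NDRG1 between populations (adjusted p = 0.049).

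No called value changed sign. Among values that were not called, HK2 between SUM159 populations was -0.0028 with library-size scaling, and HK2 between lines -0.075. LDHA between lines was -0.025 with DESeq2, -0.025 with RLE size factors, -0.15 with library-size scaling and -0.014 with no filter. With a library left out, the ranges that crossed 0 were -0.072 to 0.0033 (SLC2A1, SUM159 ALDHbr NIF), -0.22 to 0.00016 (VEGFA, SUM159 ALDHneg NIF), -0.17 to 0.029 (HK2) and -0.16 to 0.11 (NDRG1) in SW620 ALDHbr NIF, -0.13 to 0.12 (NDRG1, SW620 ALDHneg NIF), -0.028 to 0.071 (HK2, SUM159 populations), -0.034 to 0.048 (LDHA, SW620 populations), -0.21 to 0.0076 (VEGFA, SUM159 ALDHbr minus ALDHneg), -0.028 to 0.17 (HK2, the same in SW620), -0.12 to 0.28 (ADM, line difference in ALDHbr), and -0.032 to 0.16 (HK2), -0.050 to 0.034 (LDHA) and -0.052 to 0.27 (ADM) between lines under DMSO.

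Counts over all genes moved too. In SUM159 under NIF, ALDHbr (473) gave 875 with DESeq2, 725 with all 24 libraries, 1994 with the block and 222 to 322 with a library left out, and ALDHneg (493) gave 884, 743, 1970 and 192 to 584, with 292 from the 6 compared libraries. Between SUM159 populations 3432 became 5388 with the block and 2543 to 3136 with a library left out. Between SW620 populations 1577 became 729 with the 6 compared libraries and 712 to 5487 with a library left out. CA9 in SUM159 ALDHbr cells under DMSO rests on 16 to 29 counts a library, which limits its precision.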
